A study of Homo sapiens with 15 samples.

Results

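The genes described here are 10 human members of the MYC, MAX and MXD network: MYC, MYCN, MYCL, MAX, MXD1, MXD3, MXD4, MXI1, MNT and MLXIP. They were chosen by name among the 60649 human genes of the deposited count table, when earlier results of these data, among them a lower MYCN level in 1 group, were already known. All 10 were present once in the table, and all 10 passed the filter on low counts, among 15435 human genes that did. MYCL passed with only 4 to 23 counts per library.

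The RNA came from subcutaneous tumours of A549, an established human lung adenocarcinoma line, grown in BALB/c nude mice, an athymic strain short of T cells but with other host immune cells. In the stress group the label states restraint 7 days before the cells were transplanted (n = 5). In the post-stress group it states restraint 12 days after transplantation (n = 5), and in the no-stress group mice were not restrained (n = 5). Whether those days are durations or starting points is not given in the sources used here, and the count columns named for restraint before transplantation were taken as the stress group. All groups share the same transplanted line and host strain. The labels give no age or sex of the mice, and whether each library is 1 tumour of 1 mouse is not stated. Human rows stand for the tumour cells and mouse rows for the host.

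MYC family proteins bind DNA at E-boxes as pairs with MAX and activate genes of growth, among them those that make ribosomes and nucleotides. MXD1, MXI1, MXD3, MXD4 and MNT also pair with MAX, sit on the same E-boxes and recruit SIN3 corepressors, so that they oppose MYC. MLXIP, also called MondoA, belongs to a parallel branch that pairs with MLX and responds to glucose. In tumours MYC drives proliferation, and some of the repressors, such as MXD1 and MXD4, are known to accumulate when cells stop dividing or differentiate. MXI1 is also a known target of HIF, the factor that low oxygen stabilizes.

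The promoters of MXI1 and MNT, the repressors whose levels were higher in restrained animals, are shown because their letters can be set beside those values. Of the 3 RefSeq starts of MXI1, start 1 held none of the motifs searched and is not printed, so that the lines show only the starts with a match. Each line gives the 250 bases before a RefSeq start (GRCh38.p14), 5′ to 3′ on the gene's strand, and capitals mark the E-box CACGTG and the hypoxia response cores ACGTG and GCGTG, searched on both strands. ACGTG is contained in CACGTG, so that every E-box is also counted as ACGTG.
MXI1 start 2, chr10:110209981-110210230, plus strand: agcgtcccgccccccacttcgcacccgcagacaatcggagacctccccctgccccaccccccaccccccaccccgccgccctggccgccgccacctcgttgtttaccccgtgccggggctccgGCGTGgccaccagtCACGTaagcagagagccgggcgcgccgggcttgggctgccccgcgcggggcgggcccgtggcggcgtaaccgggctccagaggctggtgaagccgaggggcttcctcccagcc
MXI1 start 3, chr10:110225746-110225995, plus strand: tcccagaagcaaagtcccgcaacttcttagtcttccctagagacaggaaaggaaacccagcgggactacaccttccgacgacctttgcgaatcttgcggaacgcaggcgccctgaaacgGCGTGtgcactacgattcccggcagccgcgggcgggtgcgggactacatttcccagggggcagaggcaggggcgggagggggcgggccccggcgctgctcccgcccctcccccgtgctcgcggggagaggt
MNT, chr17:2401061-2401310, minus strand: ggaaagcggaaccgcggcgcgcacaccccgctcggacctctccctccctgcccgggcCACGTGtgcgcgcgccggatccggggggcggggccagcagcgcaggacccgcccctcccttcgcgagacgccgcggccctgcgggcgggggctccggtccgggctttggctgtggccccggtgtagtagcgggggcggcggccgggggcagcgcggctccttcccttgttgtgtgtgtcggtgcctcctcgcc
The promoter of MYC was not among those searched. Of 12 RefSeq starts of the 9 other members, 2 had CACGTG (those of MNT and MXD4). ACGTG was found in 4 (MNT, MXD4, MAX start 1 and MXI1 start 2) and GCGTG in 4 (MXI1 starts 2 and 3, MXD3 and MLXIP). Of these genes MXD4, MAX, MXD3 and MLXIP were not called higher with stress or post-stress than without stress. Among 35116 promoters of the same length in the table, 6.345% had CACGTG, 18.513% ACGTG and 32.216% GCGTG. A match is only a match of letters. The counts do not separate transcripts, so that no start of MXI1 can be assigned to the values below.

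Total counts per library ranged from 16729091 to 19680449 and human counts from 12877165 to 15892705. Mouse genes took 18.6% to 24.6% of counts in stress tumours, 12.4% to 23.0% in post-stress tumours and 15.6% to 30.2% in no-stress tumours. By two-sided exact permutation tests the adjusted p of this share was 0.619 for stress against no stress, 0.310 for post-stress against no stress and 0.310 for stress against post-stress, where 0.00794 is the smallest p the design allows. Keratins KRT8 and KRT18, expected in A549, were abundant in every library, while KRT19 stood below 1 CPM in all 15, which is low for this line, and the cause was not tested. Levels are in CPM within human counts after TMM scaling. CDKN2A, which A549 has lost, had no count in 13 libraries, but 30 counts in stress replicate 4 and 5 in post-stress replicate 3, the same 2 libraries that had counts on the neighbouring CDKN2B. Of 18 human genes of leukocytes and stroma, 10 were under 1 CPM in all libraries. Their summed level ran from 190 to 315 CPM with stress, 137 to 290 CPM with post-stress and 192 to 460 CPM without stress, and COL1A1 and RGS5 had the highest mean levels of the list in every group. Whether mouse reads were counted on conserved human sequence was not tested.

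In the comparison of stress with no stress, 4 of the 10 members were called changed at an adjusted p under 0.05, beside 10.5% of all tested human genes. MXI1 and MNT were higher and MYCN and MXD3 lower. With post-stress against no stress only MXI1 was called, beside 0.842% of all genes. As the members were chosen with these comparisons known, nothing is read from these shares. Both comparisons use the same 5 no-stress tumours, so that they are not independent of each other. The median log2 fold change over the members was 0.06 with stress and 0.07 with post-stress, against −0.01 for all genes in both. In bulk tumour RNA fewer cells of a type and less RNA per cell cannot be told apart.

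**Figure D1:**
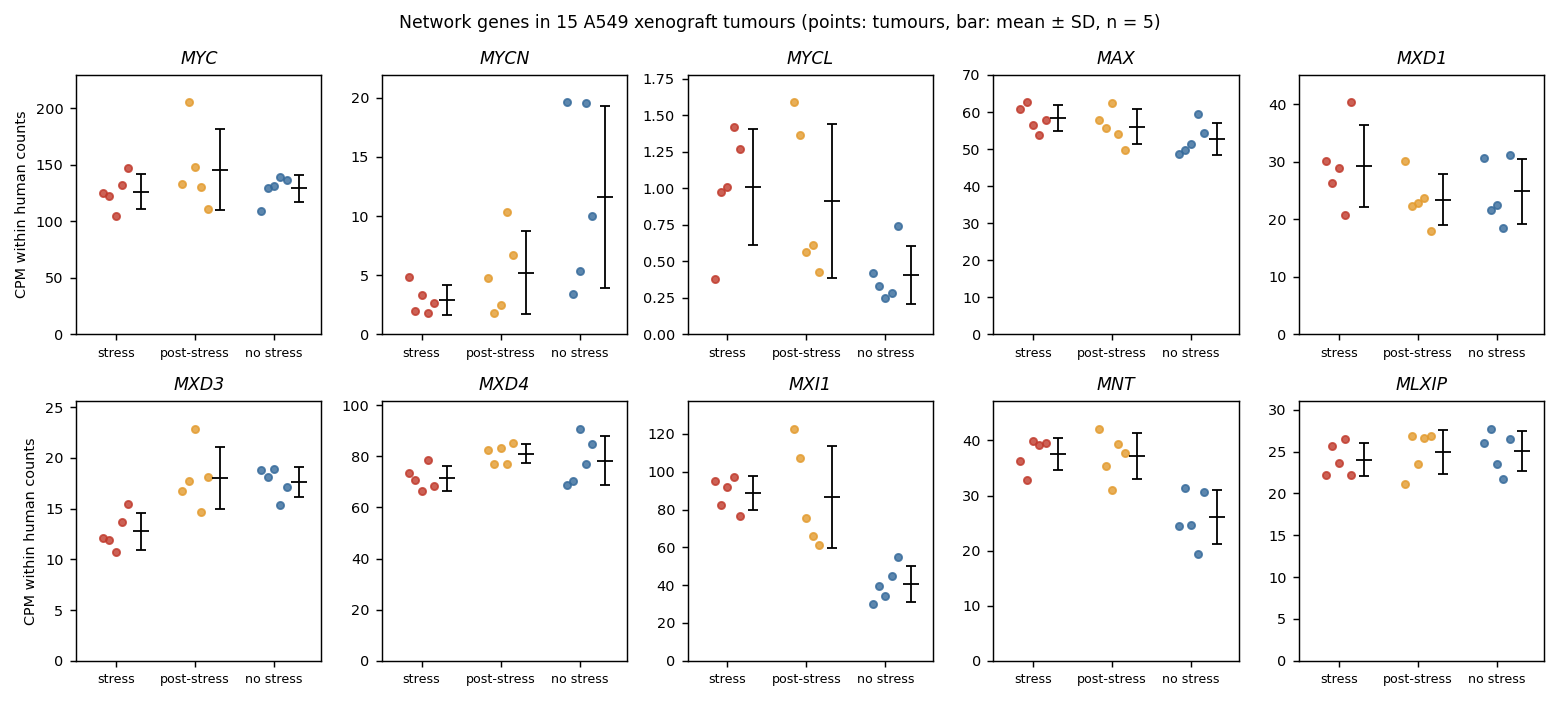
Level of each network gene (CPM within human counts, linear axis from 0) in every tumour, with stress, post-stress and no-stress tumours from left to right and the mean ± SD of 5 tumours beside the points. The restrained groups lie above all no-stress tumours for MXI1, whereas MYC overlaps in all groups and MYCN is spread widely without stress.

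The activator MYC, the best known member (GENCODE 29, GRCh38, chromosome 8, 127735434 to 127741434, plus strand), did not pass in any comparison. Its level was 125, 123, 105, 132 and 147 CPM in the 5 stress tumours, 133, 205, 148, 130.3 and 111 CPM in the post-stress tumours, and 109, 129, 131, 139.5 and 136 CPM in the no-stress tumours. The groups overlapped throughout, and the highest single value was that of post-stress replicate 2. The fold was 0.978 for stress against no stress (95% interval 0.806 to 1.19, adjusted p = 0.908) and 1.13 for post-stress against no stress (0.928 to 1.37, adjusted p = 0.582).

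MYCN, the family member best known from neuroblastoma (chromosome 2, 15940564 to 15947007, plus strand), was low and variable. Stress tumours had 4.89, 1.95, 3.30, 1.83 and 2.68 CPM, post-stress tumours 4.77, 1.78, 2.52, 10.4 and 6.70 CPM, and no-stress tumours 19.6, 3.39, 5.39, 19.6 and 9.97 CPM. Replicates 1 and 4 of the no-stress group stood near 20 CPM and replicate 2 near the stress tumours, so that the groups overlapped, with 4 of 5 stress tumours below every no-stress tumour. The fitted log2 fold change was −1.98 (SE 0.56) with stress and −1.15 (SE 0.54) with post-stress, each against no stress. The first is a description, since this decrease was known when the gene was chosen, and the second did not pass (adjusted p = 0.332).

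The mouse share was 30.2% in replicate 1, which had the highest share of all libraries, and 17.6% in replicate 4. MYCN took 2.64% ± 1.20 of the summed length-scaled level of MYC, MYCN and MYCL with stress, 4.35% ± 3.10 with post-stress and 9.24% ± 6.07 without stress (SD, n = 5 each). Its antisense neighbour MYCNOS shares 98 exon bases with it and had 71 counts over all libraries, against 207 counts of MYCN over the 5 stress tumours, 361 over the post-stress tumours and 824 over the no-stress tumours. Without a stated strand setting, reads in the shared bases cannot be told apart.

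The call of MYCN in the stress comparison did not hold with limma-voom (adjusted p = 0.103) or without a filter on low counts (adjusted p = 0.103). It also ended in 9 of 15 fits that left out 1 library, namely without any of the 5 stress tumours, post-stress replicate 1 or no-stress replicates 1, 4 or 5 (adjusted p 0.0502 to 0.108), without no-stress replicates 1 and 5 together (0.159), and without stress replicate 4 and post-stress replicate 3 together (0.0706). The log2 fold change lay between −2.24 and −1.69 in all these fits.

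MYCL, the remaining activator, was near the lower limit of detection. It stood at 0.376, 0.976, 1.01, 1.42 and 1.27 CPM in stress tumours, 1.59, 1.37, 0.561, 0.611 and 0.428 CPM in post-stress tumours, and 0.421, 0.333, 0.248, 0.287 and 0.744 CPM in no-stress tumours. In 4 of 5 stress tumours it lay above all no-stress tumours, and stress replicate 1 was among the low ones. It did not pass with stress (log2 fold change 1.32, SE 0.45, adjusted p = 0.0708) or with post-stress (1.17, SE 0.46, adjusted p = 0.230), except for stress without no-stress replicate 5 (adjusted p = 0.0429).

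MAX, the shared partner, overlapped across the groups. It ranged from 53.8 to 62.6 CPM with stress (median 57.8), 49.8 to 62.6 CPM with post-stress (median 55.7) and 48.8 to 59.4 CPM without stress (median 51.3). The fold was 1.11 for stress (95% interval 0.989 to 1.24, adjusted p = 0.241) and 1.06 for post-stress (0.950 to 1.19, adjusted p = 0.640). MLXIP overlapped likewise, at 24.0 ± 1.98 CPM with stress, 25.0 ± 2.62 CPM with post-stress and 25.1 ± 2.44 CPM without stress (SD, n = 5 each), with no call in any comparison.

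Among the repressors MXI1 (chromosome 10, 110207605 to 110287365, plus strand) had the largest fold changes against no stress in both comparisons. Its level was 95.2, 82.3, 92.0, 97.0 and 76.5 CPM in stress tumours, 123, 107, 75.3, 66.2 and 61.0 CPM in post-stress tumours, and 30.2, 39.4, 34.3, 44.8 and 54.7 CPM in no-stress tumours. All 10 tumours of restrained animals lay above all 5 no-stress tumours, and the post-stress group spread more widely, with replicates 1 and 2 above every stress tumour. Groups that did not overlap, with the restrained one above, were seen for 4.09% of genes with stress and 1.57% with post-stress. The fold was 2.18 with stress (95% interval 1.63 to 2.91, adjusted p = 0.00456) and 2.13 with post-stress (1.595 to 2.84, adjusted p = 0.0193).

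The stress call of MXI1 held in every alternative fit and every fit without 1 library (adjusted p up to 0.0208). The post-stress call did not hold with only the groups compared in the fit (adjusted p = 0.0776), with the mouse share as a covariate (0.107), without post-stress replicate 2 (0.0512), no-stress replicate 1 (0.0595) or no-stress replicate 3 (0.0653), or without no-stress replicates 1 and 5 together (0.0512), while the log2 fold change stayed between 0.94 and 1.23 in these and all other fits.

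MNT (chromosome 17, 2384060 to 2401118, minus strand), a widely expressed repressor that pairs with MAX, rose with stress. It stood at 36.3, 32.9, 39.9, 39.1 and 39.5 CPM in stress tumours, 42.1, 35.3, 31.1, 39.4 and 37.8 CPM in post-stress tumours, and 24.5, 31.4, 24.6, 19.4 and 30.6 CPM in no-stress tumours. Every stress tumour and 4 of 5 post-stress tumours lay above all no-stress tumours. The fold was 1.44 with stress (95% interval 1.21 to 1.71, adjusted p = 0.0114) and 1.42 with post-stress (1.20 to 1.69, adjusted p = 0.0502), so that only the first passed. The stress call held in all fits (adjusted p up to 0.0336). The post-stress fold lay at the threshold: it passed with DESeq2 size factors (0.0474), DESeq2's Wald test (0.00503), no filter on low counts (0.0055), at least 1 CPM in 5 libraries (0.046), without stress replicate 2 (0.0475), post-stress replicate 3 (0.0343), no-stress replicate 2 (0.0338) or no-stress replicate 5 (0.035), and without stress replicate 4 and post-stress replicate 3 together (0.0391). The adjusted p over all fits was 0.00503 to 0.147.

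MXD3, which in mouse cells is expressed during S phase (chromosome 5, 177301461 to 177312757, minus strand), fell with stress. It stood at 12.0, 11.9, 10.7, 13.7 and 15.5 CPM in stress tumours, 16.7, 17.7, 22.9, 14.7 and 18.1 CPM in post-stress tumours, and 18.8, 18.1, 18.9, 15.3 and 17.1 CPM in no-stress tumours. Stress replicate 5 reached into the no-stress range and the other 4 stress tumours lay below it. The log2 fold change was −0.47 with stress (SE 0.12, adjusted p = 0.0251) and 0.03 with post-stress (SE 0.12, adjusted p = 0.936). The stress call ended without stress replicates 1, 2 or 3 or no-stress replicates 1 or 3 (adjusted p 0.0616 to 0.0704). It also ended without no-stress replicates 1 and 5 together (0.105) and with replicate number as a block (0.0542).

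Exons of MXD3 share 1158 bases with PRELID1 on the opposite strand and 926 bases with RAB24 on the same strand, so that its count is uncertain. With stress PRELID1 had a log2 fold change of −0.10 (SE 0.11, adjusted p = 0.600) and RAB24 one of −0.27 (SE 0.17, adjusted p = 0.340). Neither passed.

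The other repressors, MXD1 and MXD4, which are known to be induced as cells differentiate, were not called. MXD1 ranged from 20.8 to 40.3 CPM with stress (median 28.8), 18.0 to 30.2 CPM with post-stress (median 22.9) and 18.6 to 31.1 CPM without stress (median 22.5). MXD4 ranged from 66.3 to 78.8 CPM with stress (median 70.6), 77.0 to 85.3 CPM with post-stress (median 82.6) and 68.6 to 90.8 CPM without stress (median 77.1). MXD1 shares 237 exon bases with SNRNP27 on the same strand. The adjusted p of MXD1 was 0.439 with stress and 0.869 with post-stress, and that of MXD4 0.317 and 0.827.

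Between the restrained groups no member was called by the edgeR quasi-likelihood test, where 0.0389% of all genes were. At an unadjusted p under 0.05 there were 1716 of the 15435 tested genes. Of the members there were 2, MXD3 (log2 fold change of stress over post-stress −0.50, SE 0.12, adjusted p = 0.131) and MXD4 (−0.18, SE 0.08, adjusted p = 0.402). DESeq2's Wald test called 1, MXD3 (adjusted p = 0.0232), and limma-voom none. MXI1 differed by a fold of 1.02 between stress and post-stress, with a 95% interval of 0.772 to 1.36.

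**Figure D2:**
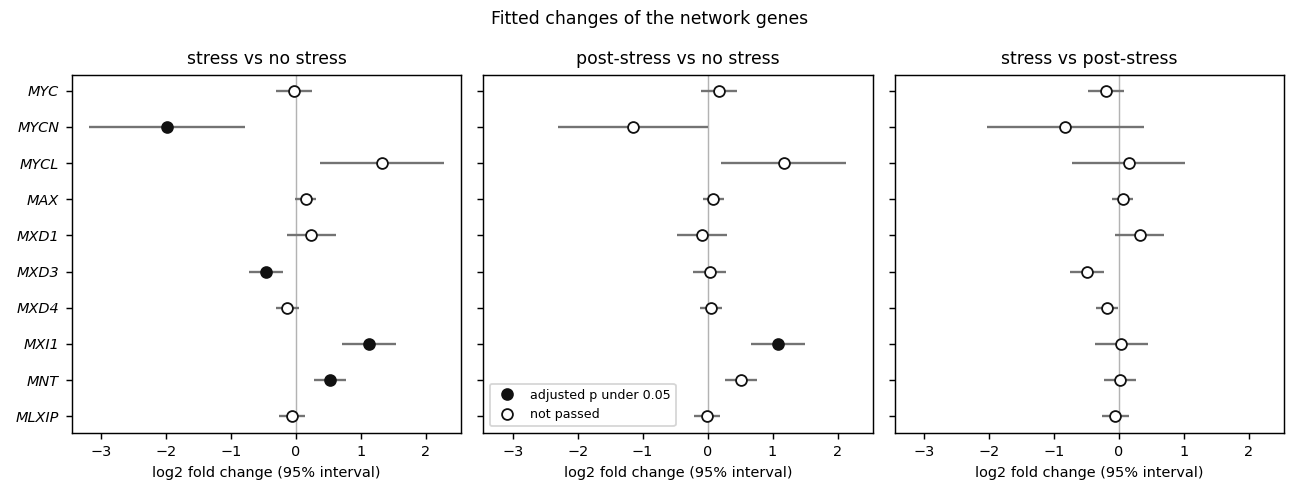
Fitted log2 fold change of each network gene with its 95% interval in the 3 comparisons, the first-named group over the second. Filled points passed an adjusted p under 0.05: MYCN, MXD3, MXI1 and MNT for stress against no stress, MXI1 for post-stress against no stress, and none for stress against post-stress.

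Levels of different genes were compared per length, as TPM (counts divided by the exon bases of each gene in GENCODE 29 and scaled to the same sum in every library). MYC was the highest member in every group, at 146 ± 18.2 TPM with stress, 162 ± 39.7 TPM with post-stress and 149.7 ± 11.7 TPM without stress (SD, n = 5 each). In both restrained groups MXI1 came next, at 66.9 ± 7.99 TPM with stress and 62.9 ± 19.8 TPM with post-stress, and its range did not overlap that of MAX, the gene after it. Without stress MXI1 came after MAX and MXD4, at 30.7 ± 6.74 TPM, and its range overlapped those of MXD4 above and MYCN below it. MYCN had rank 9 with stress, rank 8 with post-stress and rank 5 without stress, and it overlapped a neighbour in each group. MYCL was last in every group. A gene with long, little used exons is set too low on this scale.

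The 5 repressors summed to 142 ± 10.0 TPM with stress, 139.7 ± 22.0 TPM with post-stress and 105 ± 10.9 TPM without stress, of which MXI1 made up 47.2% ± 3.4 with stress, 44.2% ± 7.11 with post-stress and 28.99% ± 4.72 without stress (SD, n = 5 each). The summed level of MYC, MYCN and MYCL was 151 ± 17.9 TPM with stress, 169.5 ± 37.9 TPM with post-stress and 165 ± 9.63 TPM without stress. The ratio of repressor to activator TPM was 0.800 to 1.11 in stress tumours, 0.653 to 1.10 in post-stress tumours and 0.532 to 0.721 in no-stress tumours. All stress tumours lay above the no-stress range, while post-stress replicate 2, the tumour with the most MYC, lay inside it. These sums are RNA levels of genes chosen with results known and are given without a test.

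**Figure D3:**
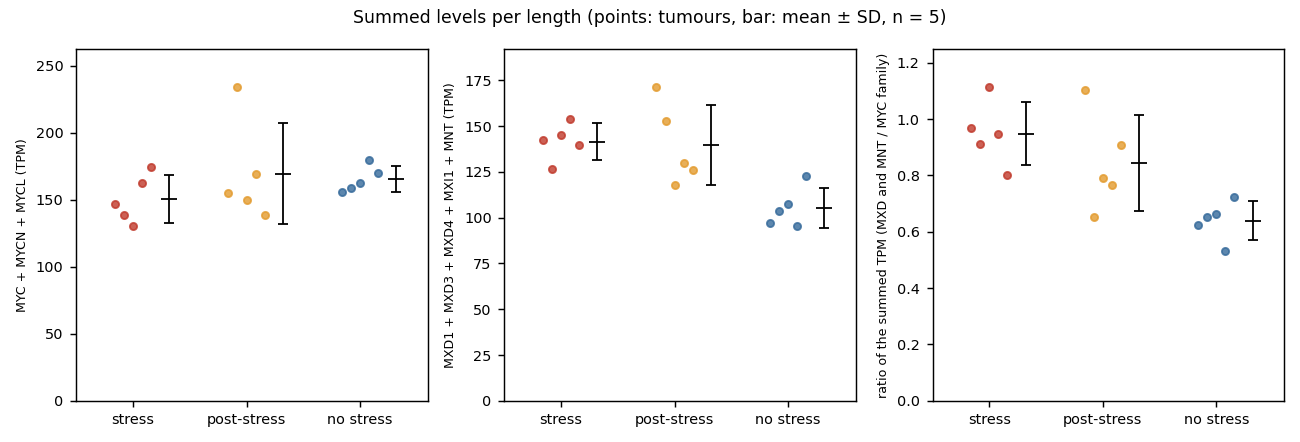
Summed TPM of MYC, MYCN and MYCL, summed TPM of the 5 repressors, and the ratio of the second to the first (axes from 0), with stress, post-stress and no-stress tumours from left to right and the mean ± SD of 5 tumours. The activator sums overlap, and the ratio of every stress tumour lies above 0.721, the highest no-stress value.

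MXI1 stood beside genes of the hypoxia response over the 15 tumours. The 5 tested genes whose log2 CPM were most like it over the 15 libraries were NDRG1 (Pearson r = 0.98), ANGPTL4 (0.96), HK2 (0.95), BNIP3 (0.95) and INSIG2 (0.95). NDRG1 and BNIP3 are HIF targets, HK2 encodes a hexokinase, ANGPTL4 an inhibitor of lipoprotein lipase and INSIG2 a brake on sterol synthesis. With group means taken off, these correlations were 0.93, 0.84, 0.85, 0.81 and 0.78. All values share libraries and scaling, and part of each pooled value is the difference between groups.

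The summed level of 10 hypoxia genes (CA9, ADM, NDRG1, VEGFA, ANKRD37, EGLN3, PDK1, SLC2A1, BNIP3 and ENO2) ran from 2771 to 3838 CPM in stress tumours, 1941 to 4374 CPM in post-stress tumours and 964 to 1762 CPM in no-stress tumours. This sum includes NDRG1 and BNIP3, which were among the genes most like MXI1 in the same libraries, so that it is not a separate measure. MXI1 correlated with the sum at r = 0.97 over 15 libraries and 0.91 with group means taken off. For MNT these were 0.76 and 0.22, for MYCL 0.75 and 0.50, and for MAX 0.65 and 0.49. For MYCN they were −0.62 and −0.16, for MLXIP −0.39 and −0.55, and for MYC 0.21 and 0.38. Within the stress group the orders of MXI1 and the hypoxia sum differed. Replicate 4 had the most MXI1 (97.0 CPM) at 3204 CPM of the hypoxia genes. Replicate 5 had the least (76.5 CPM) at 3345 CPM. Of these 10 genes 9 rose with stress, beside 5.23% of all genes, and 3 with post-stress, beside 0.596%, and none fell. CA9 was not called with stress (log2 fold change 0.35, adjusted p = 0.634) or with post-stress (0.31, adjusted p = 0.778). The median log2 fold changes of the 10 genes were 1.09 with stress and 0.86 with post-stress. The part of these genes, or of oxygen, in the MXI1 result was not tested.

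**Figure D4:**
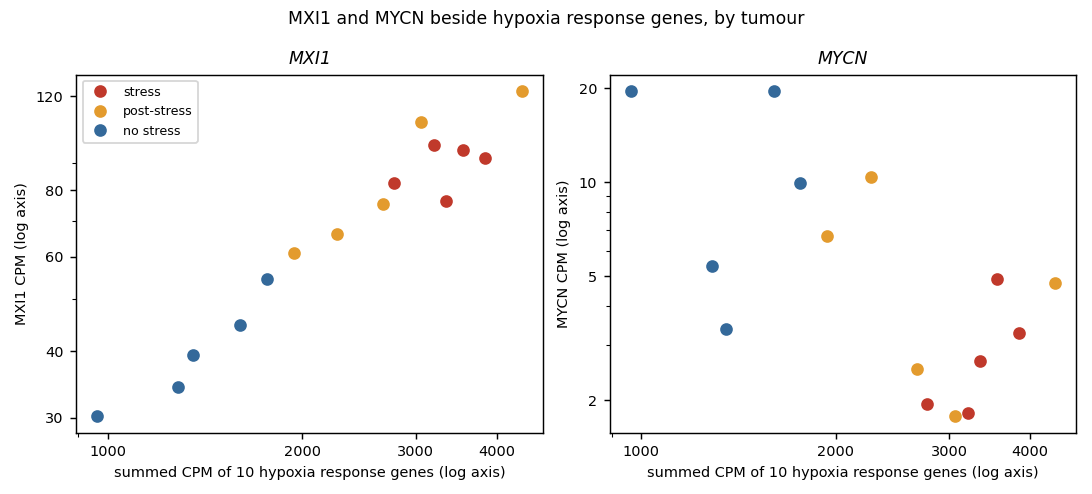
MXI1 (left) and MYCN (right) in CPM against the summed CPM of 10 hypoxia response genes in each of 15 tumours, both axes logarithmic. The sum includes NDRG1 and BNIP3, which were among the genes most like MXI1. Over the 15 tumours MXI1 rises along the hypoxia genes, with r = 0.91 after group means are taken off, against −0.16 for MYCN. Among the 5 stress tumours the orders differ. MXI1 was highest in replicate 4 (3204 CPM of hypoxia genes) and lowest in replicate 5 (3345 CPM).

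Genes most like MYCN were ERAL1 (r = 0.84), EHF (0.84), LNCATV (0.82), NDRG2 (0.81) and FDXR (0.81), and with group means taken off 0.73, 0.69, 0.76, 0.67 and 0.71. EHF is an epithelial ETS factor, ERAL1 acts in assembly of the mitochondrial ribosome and FDXR is mitochondrial ferredoxin reductase. NDRG2 belongs to a family named for genes downstream of MYCN.

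Other members of the network were not called in any comparison by edgeR. They were MLX, the partner of MLXIP, MLXIPL, also called ChREBP, and MGA, a large MAX-binding repressor. At an unadjusted p under 0.05 there were 2 of the 3 with stress, beside 4033 of the 15435 tested genes, and none in the other comparisons. MLX stood at 75.1 ± 2.79 CPM with stress, 69.2 ± 7.59 CPM with post-stress and 66.5 ± 2.604 CPM without stress (SD, n = 5 each; adjusted p = 0.138 for stress against no stress and 0.769 for post-stress against no stress). It shares 770 exon bases with PSMC3IP on the opposite strand. MLXIPL, at 0.779 ± 0.509, 1.38 ± 0.686 and 1.48 ± 0.141 CPM in the same groups, was close to the detection limit.

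Known targets of MYC were taken as lists of textbook genes, written down with earlier results of these data known. Of 26 genes of the nucleolus and of ribosome biogenesis 7 fell with stress and none rose, beside 5.22% of all genes that fell. UBTF, which activates transcription of ribosomal RNA genes, stood at 114 ± 8.23 CPM with stress and 154 ± 4.75 CPM without (log2 fold change −0.43, adjusted p = 0.00239). NOP58, a core protein of box C/D snoRNPs, stood at 73.3 ± 4.40 CPM with stress and 94.5 ± 9.74 CPM without (−0.37, adjusted p = 0.0111). RRS1, a ribosome assembly factor, stood at 25.7 ± 2.82 CPM with stress and 38.5 ± 1.35 CPM without (−0.58, adjusted p = 0.00735; SD, n = 5 each). NOP2, an rRNA methyltransferase, also fell (−1.36, adjusted p = 0.00645), but at 0.376 to 0.673 CPM with stress and 1.05 to 1.61 CPM without it had too few counts for a firm level. Such counts are unusually low for a gene of ribosome synthesis, as were those of FBL in the same list, named after its values were seen (2.17 to 17.9 CPM over all libraries). Whether reads that overlap other genes or map to several places were lost was not tested, so that the decrease of NOP2 is uncertain. Over the 26 genes the median change was −0.25 on the log2 scale.

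Of 26 genes of nucleotide and polyamine synthesis, translation and chaperones 9 fell with stress and none rose, beside 5.22% of all genes that fell. The median log2 fold change was −0.21. UMPS, an enzyme of pyrimidine synthesis, stood at 68.2 ± 5.41 CPM with stress and 92.8 ± 8.04 CPM without (log2 fold change −0.44, adjusted p = 0.00341). MTHFD1, a folate enzyme, fell by 0.31 on the log2 scale (adjusted p = 0.00958), the transferrin receptor TFRC fell by 0.62 (adjusted p = 0.0223), and ODC1, the first enzyme of polyamine synthesis, fell by 0.42 (adjusted p = 0.0253). ODC1 stood at 91.3 ± 12.4 CPM with stress, 124 ± 19.9 CPM with post-stress and 122 ± 12.8 CPM without stress (SD, n = 5 each). EIF4A1, named after its values were seen, had means of only 6.76 CPM with stress and 6.60 CPM without. Those of EIF3B, in the same list, were 146 and 177 CPM. Whether reads of EIF4A1 were lost was not tested.

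With post-stress no gene of either list was called by edgeR with all groups and libraries or by limma-voom. DESeq2's Wald test called 2 of each, beside 504 of the 15435 tested genes. In the nucleotide list edgeR called 1 decrease with only the groups compared and 1 without stress replicate 2. At an unadjusted p under 0.05 there were 12 of the ribosome list and 7 of the nucleotide list, beside 2341 of the 15435 tested genes. The smallest p belonged to UBTF (log2 fold change −0.27, adjusted p = 0.0731) and NOP58 (−0.29, adjusted p = 0.108) in the first, and to SHMT1, a folate enzyme (−2.98, adjusted p = 0.0728), and TFRC (−0.52, adjusted p = 0.131) in the second. SHMT1 had 0.771 to 1.64 CPM with post-stress and 3.23 to 15.9 CPM without stress. The SE of its log2 fold change was 0.72, so that the size of the change is uncertain. The median log2 fold changes with post-stress were −0.18 and −0.02. Between stress and post-stress edgeR with all groups and libraries called no gene of either list. At an unadjusted p under 0.05 there were 3 of the ribosome list and 9 of the nucleotide list, beside 1716 of the 15435 tested genes. In this comparison 1 of the nucleotide list was called by DESeq2's Wald test, by edgeR with no filter on low counts and by edgeR without stress replicate 4. ODC1 had the smallest p there (−0.44, adjusted p = 0.132).

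These counts depended on single libraries. Without no-stress replicate 1 the stress comparison kept a count of 4 in the ribosome list and 2 in the nucleotide list, and without stress replicate 1 these were 4 and 3. The nucleotide list also fell to 3 without stress replicate 3, to 5 without stress replicates 2 or 5, to 4 without no-stress replicate 3 and to 4 with no filter on low counts.

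Of 9 tested genes that MYC is known to repress 4 rose with stress, 1 fell and 4 did not pass, beside 5.23% of all genes that rose. KLF6, a zinc finger factor, stood at 283 ± 62.6 CPM with stress and 119 ± 30.2 CPM without (log2 fold change 1.25, adjusted p = 0.00168). CDKN1B, the CDK inhibitor p27, stood at 121 ± 10.5 CPM with stress and 81.1 ± 12.0 CPM without (0.58, adjusted p = 0.00287). GADD45B, a stress response gene, rose by 1.301 (adjusted p = 0.00419) and NDRG1 by 1.92 (adjusted p = 0.00323; SD, n = 5 each). NDRG1 is also in the list of hypoxia genes and was the gene most like MXI1. NDRG2, named here after its values were seen, fell by 0.87 on the log2 scale (adjusted p = 0.0365), at 4.88 ± 1.03 CPM with stress and 8.95 ± 3.21 CPM without. With post-stress NDRG1 (1.85, adjusted p = 0.0103) and GADD45B (1.00, adjusted p = 0.0491) rose, beside 0.596% of all genes, and none of the list fell. That count was 1 in 11 of the 15 fits without 1 library (all but those without stress replicate 5, post-stress replicates 4 or 5, or no-stress replicate 5), 1 without TMM factors, with limma-voom or with only the groups compared, 0 with the mouse share as a covariate or with replicate number as a block, and 4 with DESeq2's Wald test. It was 1 without no-stress replicates 1 and 5 together and without stress replicate 4 and post-stress replicate 3 together.

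The list of cofactors of MYC and regulators of its stability also held the corepressor genes SIN3A, SIN3B, HDAC1, HDAC2 and NCOR1. It gave 7 decreases and 1 increase among 26 genes with stress, beside 5.22% of all genes that fell and 5.23% that rose. The median log2 fold change was −0.13. Among the decreases was HDAC1 (−0.25, adjusted p = 0.0361), so that they do not all concern genes that act with MYC. The increase was that of PIM1, a kinase that cooperates with MYC in lymphoma, at 38.96 ± 6.55 CPM with stress, 31.98 ± 2.83 CPM with post-stress and 16.97 ± 4.34 CPM without stress. It rose by 1.20 with stress (adjusted p = 5.66e-04) and by 0.92 with post-stress (adjusted p = 0.00921), and was the only gene of the list called with post-stress, where 0.596% of all genes rose. AURKA, a mitotic kinase that also stabilizes MYCN protein, fell with stress (28.8 ± 3.00 against 46.1 ± 11.4 CPM, adjusted p = 0.00689). HCFC1 (73.3 ± 8.62 against 99.3 ± 10.4 CPM, adjusted p = 0.0133) and WDR5 (60.1 ± 4.48 against 75.9 ± 5.48 CPM, adjusted p = 0.0206), chromatin cofactors of MYC, fell likewise (stress against no stress, SD, n = 5 each). The number of decreases was 2 to 4 without stress replicates 1, 2, 3 or 5, post-stress replicate 5 or no-stress replicates 1, 3 or 4, 4 with the mouse share as a covariate, with no filter on low counts or with only the groups compared, and 1 without no-stress replicates 1 and 5 together.

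Of 5 tested glucose-responsive targets of MLXIP or MLXIPL 1 rose and 2 fell with stress, beside 5.23% of all genes that rose and 5.22% that fell. KLF10, a factor induced by TGF-beta as well as glucose, stood at 205 ± 31.7 CPM with stress, 158 ± 14.7 CPM with post-stress and 106 ± 21.6 CPM without stress, and rose in both (adjusted p = 0.00117 for stress and 0.0468 for post-stress). Its post-stress call ended in 10 of 15 fits without 1 library (all but those without stress replicates 2, 4 or 5, post-stress replicate 5 or no-stress replicate 5). It also ended without TMM factors, with only the groups compared, with the mouse share as a covariate, and without stress replicate 4 and post-stress replicate 3 together. The lipogenic genes FASN (−0.47, adjusted p = 0.0223) and ELOVL6 (−0.74, adjusted p = 0.0133) fell with stress. TXNIP, the classic MLXIP target, ranged from 75.2 to 220 CPM with stress, 46.4 to 152 CPM with post-stress and 60.6 to 93.1 CPM without stress and was not called. Between stress and post-stress no gene of the cofactor, repressed or glucose lists was called by edgeR, DESeq2 or limma-voom. At an unadjusted p under 0.05 there were 4, 1 and 2 of them, beside 1716 of the 15435 tested genes. The smallest adjusted p by edgeR were those of WDR5 (0.267), KLF6 (0.212) and KLF10 (0.262).

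Proliferation genes stood beside these lists. Of 10 (MKI67, TOP2A, MCM2, MCM6, FEN1, CCNB1, CDK1, CCNA2, PCNA and RRM2) 9 fell with stress, beside 5.22% of all genes, and 3 with post-stress, beside 0.246%, and none rose. Their summed level was 837 to 1055 CPM with stress, 994 to 1244 CPM with post-stress and 1088 to 1836 CPM without stress. MXI1 correlated with this sum at r = −0.79 over 15 libraries and −0.52 with group means taken off. The part of the proliferation genes in the target results or in the MXI1 result was not tested.

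**Figure D5:**
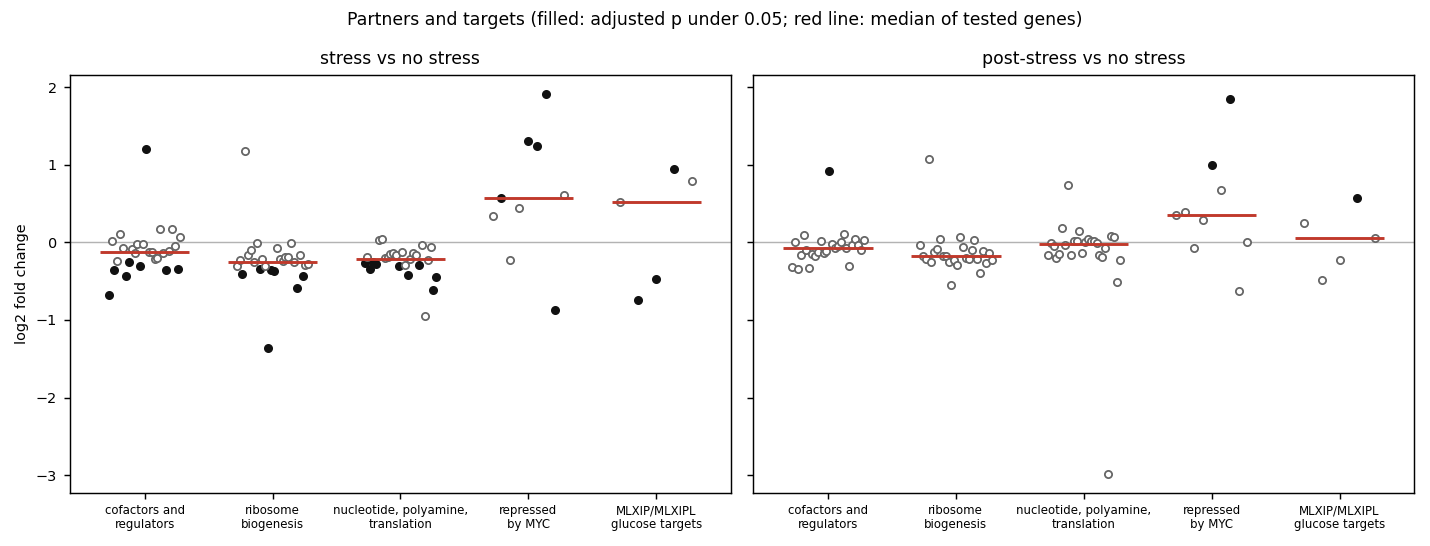
Log2 fold change of each tested gene of 5 lists of MYC partners, corepressors and targets for stress (left) and post-stress (right), each against no stress. Filled points passed an adjusted p under 0.05. Red lines are list medians, and the single point near −3 with post-stress is SHMT1, which did not pass (adjusted p = 0.0728).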

How the data were processed

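RNA of 15 tumours was analysed, 5 per group. The authors deposited raw gene counts for 60649 human and 56941 mouse genes, made per the submitters' processing notes with Trimmomatic (0.39), HISAT2 (2.2.1) and featureCounts (2.0.6) on builds hg38 and mm10; edgeR and DESeq2 are named there too. The sources used here give neither the strand setting nor the annotation release. Symbols came from a reference table (60507 human identifiers matched), coordinates and lengths from GENCODE 29, promoters from RefSeq.

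Human counts were filtered with filterByExpr (15435 genes, 99.8% of counts) and scaled with TMM. All libraries entered 1 edgeR quasi-likelihood fit (edgeR 4.0.16, R 4.3.3) with robust dispersions, and p-values were Benjamini-Hochberg adjusted over all tested genes within a comparison. Intervals are 95% from the fit. Log2 CPM used a prior count of 2. The biological coefficient of variation was 0.187.

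The members and lists were chosen with earlier results of these data known. Named were all members, up to 4 called genes per list and comparison by smallest p (up to 2 where none was called), and the 5 genes most like MYC, MYCN and MXI1. Alternatives were DESeq2 (1.42.0) size factors and Wald test, no TMM, limma-voom (3.58.1), other filters, only the groups compared, a replicate block, the mouse share, and left-out libraries. The fit without stress replicate 4 and post-stress replicate 3 was chosen after seeing the data. The edgeR fit was tested on simulated data. TPM used human counts and exon-union lengths. The mouse share was compared by exact permutation tests. No 2 libraries held identical values. The labels do not say whether tumours of a group came from separate experiments or whether each library is 1 tumour of 1 mouse. The p-values set differences between groups against the spread between these libraries, each taken as 1 tumour. Reads carry no molecular identifiers.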

Additional observations from a re-analysis of the deposited data

How the results depend on the processing

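With stress against no stress 1613 human genes were called, 990 with replicate number as a block, 546 without no-stress replicates 1 and 5 together, and 661 to 1834 without 1 library. With post-stress against no stress 130 were called, 504 with DESeq2's Wald test, 49 with only the groups compared, 57 with the block, 38 with the mouse share, 32 without no-stress replicates 1 and 5, and 37 to 144 without 1 library. With stress against post-stress 6 were called, 203 with DESeq2's Wald test, 36 with no filter, 1 with only the groups compared, 0 with the block, 0 with the mouse share, 111 without stress replicate 4 and post-stress replicate 3 together (added once the data had been seen), and 0 to 189 without 1 library. Members called numbered 2 instead of 4 with stress without no-stress replicates 1 and 5, and 2 to 4 without 1 library. With post-stress they numbered 2 instead of 1 with DESeq2 size factors, DESeq2's Wald test, no filter, at least 1 CPM in 5 libraries, and without stress replicate 4 and post-stress replicate 3, 0 with only the groups compared, the block, the mouse share, or without no-stress replicates 1 and 5, and 0 to 2 without 1 library. Between stress and post-stress 1 was called by DESeq2's Wald test instead of 0. The replicate numbers gave no sign of pairing the samples, though low correlations cannot exclude a pairing. Same-numbered libraries had correlations of deviations from −0.19 to 0.12, over 0.1 in 1 of 15 pairs, and a library correlated best with its own number in 2 of 30 cases. With the block, MXI1 with post-stress had an adjusted p of 0.0864 and MXD3 with stress 0.0542. The block left 2 decreases in the cofactor list with stress, and with post-stress 1 of the nucleotide list and 0 of the genes repressed by MYC.

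Changes of sign were seen for uncalled log2 fold changes near 0. MLXIP with post-stress was 0.00157 with DESeq2 size factors, 0.00145 with DESeq2's Wald test, 0.00769 with no filter, 0.00219 with at least 1 CPM in 5 libraries, 0.00288 with only the groups compared, 0.0625 with the mouse share, 0.0391 without no-stress replicates 1 and 5 and 0.0245 without stress replicate 4 and post-stress replicate 3, and −0.0448 to 0.0608 without 1 library. MXD3 with post-stress was −0.0249 without TMM factors, −0.0616 without stress replicate 4 and post-stress replicate 3 and −0.0701 to 0.105 without 1 library. MXD1 with post-stress was 0.0478 with the mouse share, 0.162 without no-stress replicates 1 and 5 and −0.184 to 0.0135 without 1 library. For stress over post-stress, MNT was −0.0290 with the mouse share, −0.0571 without stress replicate 4 and post-stress replicate 3 and −0.0418 to 0.0632 without 1 library, MYCL −0.139 in that setting and −0.0350 to 0.437 without 1 library, and MXI1 −0.0473 in that setting and −0.0712 to 0.191 without 1 library. MYC with stress ranged from −0.0853 to 0.0317 without 1 library, and the mouse share of stress minus no-stress tumours from −3.27 to 0.370 percentage points, against −1.53 with all. The cause of these shifts was not tested. At 4 to 23 counts per library, MYCL is limited by depth.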

Other observations

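MYC was most like NPM1P27, a processed pseudogene of the MYC target NPM1 (Pearson r = 0.83 over 15 libraries, 0.86 with group means taken off), followed by ALDOC, a glycolytic aldolase (0.81 and 0.77), IFT172 (0.79 and 0.78), HDHD5 (0.78 and 0.74) and FAM83A-AS1 (0.76 and 0.76). Reads of a pseudogene and its parent gene cannot always be told apart, so that its level is uncertain.

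Between members, MYCL and MXI1 had r = 0.78 over 15 libraries and 0.60 with group means taken off, although MYCL rests on few counts. MXI1 and MNT had 0.77 and 0.21, MYCN and MXI1 −0.63 and −0.24, and MYC and MYCN −0.36 and −0.52. All of these share libraries and scaling. Human mitochondrial genes took 2.91% to 4.33% of human counts in stress tumours, 3.43% to 4.38% in post-stress tumours and 4.00% to 4.48% in no-stress tumours.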
